A study of Homo sapiens with 24 samples.

Results

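The genes described here are 8 transcription factors that set up and hold the identity of the hepatocyte: HNF4A, FOXA1, FOXA2, FOXA3, CEBPA, NR1H4, NR5A2 and PROX1. They were chosen by name, by matching the Ensembl identifier of each row of the deposited count table to its gene symbol, and all 8 were found among its 14585 genes. The study treated 2 human cancer cell lines, A549 from a lung adenocarcinoma and Huh7 from a hepatocellular carcinoma, with an ethanol extract of 1 of 3 herbs used in traditional Chinese medicine, Pulsatilla chinensis (P. chinensis), Bupleurum chinense (B. chinense) or Polyporus umbellatus (P. umbellatus), and compared them with control cells by RNA sequencing. Each of the 8 groups of line and treatment held 3 libraries, 24 in all, from cells whose genotype is labelled WT. That label does not cover p53, which the study describes as wild-type in A549 and as mutant in Huh7. Each line is 1 established culture, the dose and duration behind the sequenced cells and the vehicle of the controls are not given in the sources used here, and nothing says that the replicates were separate cultures. All p-values therefore measure the spread between these libraries, which may be technical.

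A hepatocyte is held in its state by a small network of DNA-binding proteins that switch on each other's genes as well as the genes of plasma proteins, bile acid handling and metabolism. HNF4A, a nuclear receptor, is the central node of that network, and FOXA1, FOXA2 and FOXA3 are forkhead pioneer factors that can open closed chromatin for others, while CEBPA is a leucine-zipper factor of the quiescent, differentiated cell. NR1H4 encodes FXR, the receptor that senses bile acids, NR5A2 encodes LRH-1, which works with it on bile acid and cholesterol genes, and PROX1 is a homeodomain factor of the early liver bud that can restrain HNF4A and LRH-1. Several of them are also used by other epithelia of the foregut, lung included, so that a lung carcinoma line can carry some of them.

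The members lie on 5 chromosomes (GRCh38). HNF4A (ENSG00000101076, chr20:44355699-44432845, plus strand, 10 exons in the canonical transcript) and NR5A2 (ENSG00000116833, chr1:200027614-200177420, plus strand, 8 exons) are long genes with several starts. NR1H4 (ENSG00000012504) spans chr12:100473708-100564414 on the plus strand and PROX1 (ENSG00000117707) spans chr1:213983181-214041510 on the plus strand. The forkhead genes are compact, FOXA1 (ENSG00000129514) at chr14:37589552-37596059 on the minus strand, FOXA2 (ENSG00000125798) at chr20:22580998-22585455 on the minus strand and FOXA3 (ENSG00000170608) at chr19:45863989-45873797 on the plus strand. CEBPA (ENSG00000245848, chr19:33299934-33302534, minus strand) has 1 exon. Counts were per gene, over exons and UTRs together. FOXA1 and FOXA2 share 64 of their 31-base words, out of 4438 and 2687, so that few reads could be assigned to either, and FOXA3 shares none with them. Exons of FOXA1, CEBPA and PROX1 overlap antisense genes, and the strand setting of the counting is not given in the sources used here.

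Transcripts of the members fall into groups by base composition, a property that returns below. CEBPA (65.9% GC), FOXA3 (60.1%), FOXA2 (59.1%) and HNF4A (55.0%) are GC-rich, FOXA1 is intermediate at 50.4%, and PROX1 (40.7%), NR1H4 (40.2%) and NR5A2 (40.1%) are AT-rich. Start-site windows of 300 bases (250 before the start and 50 after it, RefSeq, GRCh38.p14) matched 6 of the 8 members with 8 windows. Those of HNF4A and NR5A2 are shown because each has 2 starts that a count per gene cannot separate and because these genes were called with every herb in A549, and those of CEBPA and NR1H4 because they stand at opposite ends of the composition among the members that fell in Huh7. Capitals mark the match to a searched motif.
HNF4A upstream start, chr20:44355449-44355748, plus strand: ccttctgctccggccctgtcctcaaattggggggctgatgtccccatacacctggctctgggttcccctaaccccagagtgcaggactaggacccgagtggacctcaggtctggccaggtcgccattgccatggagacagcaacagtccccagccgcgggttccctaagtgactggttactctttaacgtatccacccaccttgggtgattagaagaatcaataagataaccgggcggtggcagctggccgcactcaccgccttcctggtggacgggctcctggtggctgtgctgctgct
HNF4A downstream start, chr20:44400989-44401288, plus strand: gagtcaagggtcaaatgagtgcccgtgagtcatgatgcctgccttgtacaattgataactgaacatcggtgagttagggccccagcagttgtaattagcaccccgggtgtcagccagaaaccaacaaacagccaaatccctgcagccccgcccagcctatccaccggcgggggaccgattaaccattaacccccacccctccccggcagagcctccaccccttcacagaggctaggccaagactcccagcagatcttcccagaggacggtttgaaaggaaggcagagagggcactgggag
NR5A2 upstream start, chr1:200027460-200027759, plus strand: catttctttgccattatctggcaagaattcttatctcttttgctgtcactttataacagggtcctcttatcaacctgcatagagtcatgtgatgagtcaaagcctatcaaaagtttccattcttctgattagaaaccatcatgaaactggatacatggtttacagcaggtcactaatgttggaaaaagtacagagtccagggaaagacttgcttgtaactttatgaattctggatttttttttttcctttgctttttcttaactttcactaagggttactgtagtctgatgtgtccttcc
NR5A2 downstream start, chr1:200042341-200042640, plus strand: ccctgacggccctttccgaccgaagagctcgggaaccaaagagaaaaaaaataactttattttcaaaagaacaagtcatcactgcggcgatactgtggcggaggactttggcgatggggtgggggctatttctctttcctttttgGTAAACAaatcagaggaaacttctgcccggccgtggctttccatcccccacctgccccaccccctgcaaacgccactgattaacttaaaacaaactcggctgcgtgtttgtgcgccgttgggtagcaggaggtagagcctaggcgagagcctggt
CEBPA, chr19:33302485-33302784, minus strand: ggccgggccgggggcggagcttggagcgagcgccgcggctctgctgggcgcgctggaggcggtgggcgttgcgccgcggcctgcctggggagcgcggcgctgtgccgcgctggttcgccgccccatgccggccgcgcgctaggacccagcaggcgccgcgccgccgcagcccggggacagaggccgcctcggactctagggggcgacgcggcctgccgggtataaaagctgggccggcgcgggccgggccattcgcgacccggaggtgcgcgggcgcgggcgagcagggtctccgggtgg
NR1H4, chr12:100503110-100503409, plus strand: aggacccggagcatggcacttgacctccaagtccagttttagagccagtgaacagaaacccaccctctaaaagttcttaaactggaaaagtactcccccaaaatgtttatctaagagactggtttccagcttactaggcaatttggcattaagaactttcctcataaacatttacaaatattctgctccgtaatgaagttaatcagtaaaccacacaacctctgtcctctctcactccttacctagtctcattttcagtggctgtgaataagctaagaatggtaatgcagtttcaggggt
The CEBPA window is 80.7% GC and the NR1H4 window 41.7%. HNF4A has 60% at its upstream start and 57.7% at its downstream one. NR5A2 has 36.7% upstream and 52.7% downstream. Short motif strings were searched on both strands, and each was rare among the 35116 windows of the table. The HNF4 string CAAAGTCCA was in 0.384% of them, the C/EBP string TTGCNNCAA in 1.98%, the LRH-1 string TCAAGGTCA in 0.353% and the FXR string GGTCANTGA in 0.757%, and none of these was found in a member's window. The forkhead string TGTTTAC, in 3.42% of all windows, matched once, on the opposite strand of the downstream NR5A2 start, beginning 105 bases before it. N stands for any base, and no match says only that these letters are not in the window.

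Libraries held between 6803704 and 24345541 counts. No pair of replicates agreed within sampling noise. Marker genes fitted the labels in part. The summed level of 7 hepatocyte markers (ALB, APOB, APOA1, TTR, SERPINA1, FGB and AHSG) was 18649 to 19128 CPM (counts relative to the TMM-scaled total of the library) in Huh7 control and 6.60 to 10.2 CPM in A549 control. Of 7 lung epithelial markers the table held SFTPB, which was no higher in A549 (1.12 to 1.44 CPM in control) than in Huh7 (2.56 to 3.94 CPM), so that the lung origin of A549 rests on the label. The summed level of 7 fetal liver markers was 3722 to 4427 CPM in Huh7 and 98.1 to 121 in A549, 8 cholangiocyte and progenitor markers at 797 to 937 and 2507 to 2738, and 6 fibroblast and mesenchymal markers at 4769 to 5649 and 1504 to 1784. Replicate 2 of Huh7 with P. umbellatus stood apart from the other 2 of its group, with a median chi-square over genes, divided by the median that sampling noise alone gives, of 11.8 and 15.8 against 2.70 to 5.11 for every other pair of replicates. In a culture, fewer cells that express a gene and less RNA per cell cannot be told apart.

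In the control cells all 8 factors were higher in Huh7 than in A549, by margins that differed widely from gene to gene. The difference (log2, Huh7 against A549, edgeR quasi-likelihood test over 14584 genes) was 9.32 ± 0.22 (SE) for PROX1, 7.21 ± 0.22 for NR1H4, 5.31 ± 0.20 for CEBPA and 3.95 ± 0.22 for FOXA3. It was smaller for HNF4A (1.97 ± 0.10), FOXA2 (1.35 ± 0.12), FOXA1 (1.29 ± 0.12) and NR5A2 (0.70 ± 0.08). The largest adjusted p among the 8 was 7.08e-08, for NR5A2. In this contrast 70.7% of all genes were called, and the median log2 difference was 2.96 over the members against 0.06 over all genes tested.

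The PROX1 and NR1H4 contrasts rest on very few A549 reads, 3, 4 and 4 for PROX1 and 2, 15 and 15 for NR1H4, so that their A549 levels lie near the floor of detection, set here at 3 counts per library, and the size of these differences depends on the prior count of the fit. The SE printed with them was derived from the F statistic of the test and the change before shrinkage by the prior count. It is thus not the error of the printed value and does not give the precision of these 2 contrasts. The other 6 were measured well above the floor in both lines, with at least 32 counts in each A549 control library. A549 thus held transcripts of HNF4A, the forkhead genes, CEBPA and NR5A2.

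**Figure D1:**
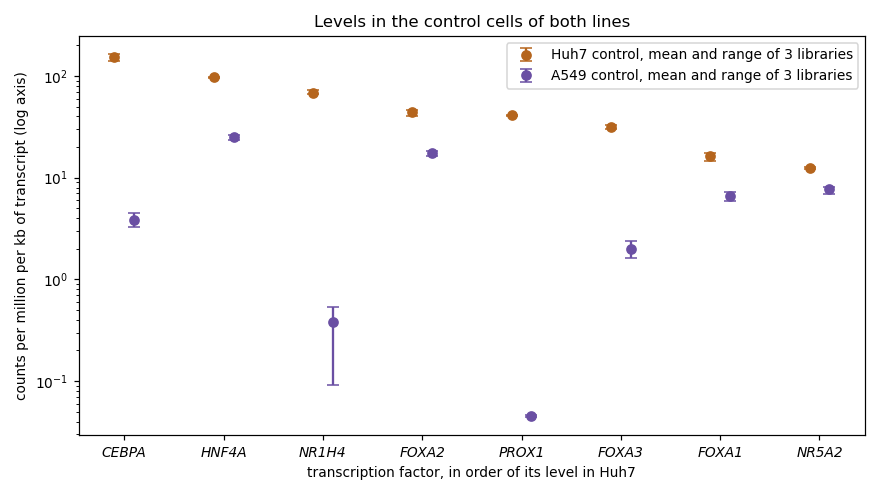
Level of each transcription factor in control cells, in CPM per kilobase of transcript on a log axis, as the mean (point) and range (bar) of 3 libraries, for Huh7 and A549. CEBPA leads in Huh7 at 155 and HNF4A in A549 at 24.9, and PROX1 is lowest in A549 at 0.0453.

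Per kilobase of transcript, the order of levels in Huh7 control was CEBPA (155 ± 13.4 CPM per kb, SD, n = 3), HNF4A (97.2 ± 1.97), NR1H4 (68.8 ± 3.0), FOXA2 (44.2 ± 3.48), PROX1 (41.0 ± 0.377), FOXA3 (31.7 ± 1.13), FOXA1 (16.3 ± 1.52) and NR5A2 (12.5 ± 0.300). The ranges of FOXA2 and PROX1 overlapped and all other neighbours were separate. CEBPA stood above 97.4% of all genes and HNF4A above 95.55%. In A549 control the order was HNF4A (24.9 ± 1.54 CPM per kb), FOXA2 (17.3 ± 0.913), NR5A2 (7.72 ± 0.762), FOXA1 (6.67 ± 0.681), CEBPA (3.88 ± 0.599), FOXA3 (1.99 ± 0.383), NR1H4 (0.385 ± 0.255) and PROX1 (0.0453 ± 0.00114), where NR5A2 and FOXA1 overlapped. CEBPA thus led in the hepatoma line and was the fifth in the lung line.

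The herbs were then compared with control within A549. HNF4A fell and NR5A2 rose with each of the 3 extracts, and these were the only members called with all 3. With P. chinensis FOXA1 and FOXA2 fell as well, and with P. umbellatus FOXA3 fell. CEBPA was called with none.

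HNF4A was 115, 110.1 and 124 CPM in the A549 control libraries. P. chinensis gave 47.8, 43.9 and 45.6 CPM, B. chinense 51.6, 48.4 and 53.5, and P. umbellatus 45.9, 56.1 and 46.1. All 9 treated libraries lay below all 3 controls. The P. umbellatus range covered all of the B. chinense range and part of the P. chinensis range, which did not overlap each other. The log2 fold change was −1.34 ± 0.08 (SE, adjusted p = 2.35e-08), −1.18 ± 0.08 (1.74e-07) and −1.23 ± 0.08 (1.02e-07), in the order of herbs above. HNF4A thus fell by 60.6% with P. chinensis and fell by 57.5% with P. umbellatus, and the fall with B. chinense was the smallest of the 3.

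NR5A2 was 41.4, 40.4 and 34.04 CPM in control. P. chinensis gave 84.3, 76.7 and 77.1 CPM, B. chinense 74.5, 76.5 and 75.4, and P. umbellatus 81.2, 76.8 and 77.9. Every treated library stood above every control, and the treated libraries as a whole spanned 74.5 to 84.3 CPM. The rise was 2.05-fold with P. chinensis (log2 1.04 ± 0.08, adjusted p = 1.21e-07), 1.95-fold with B. chinense (0.97 ± 0.08, 5.06e-07) and 2.04-fold with P. umbellatus (1.03 ± 0.08, 2.30e-07). These nuclear receptors thus moved in opposite directions in the same libraries, and both calls held in every alternative that was run.

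**Figure D2:**
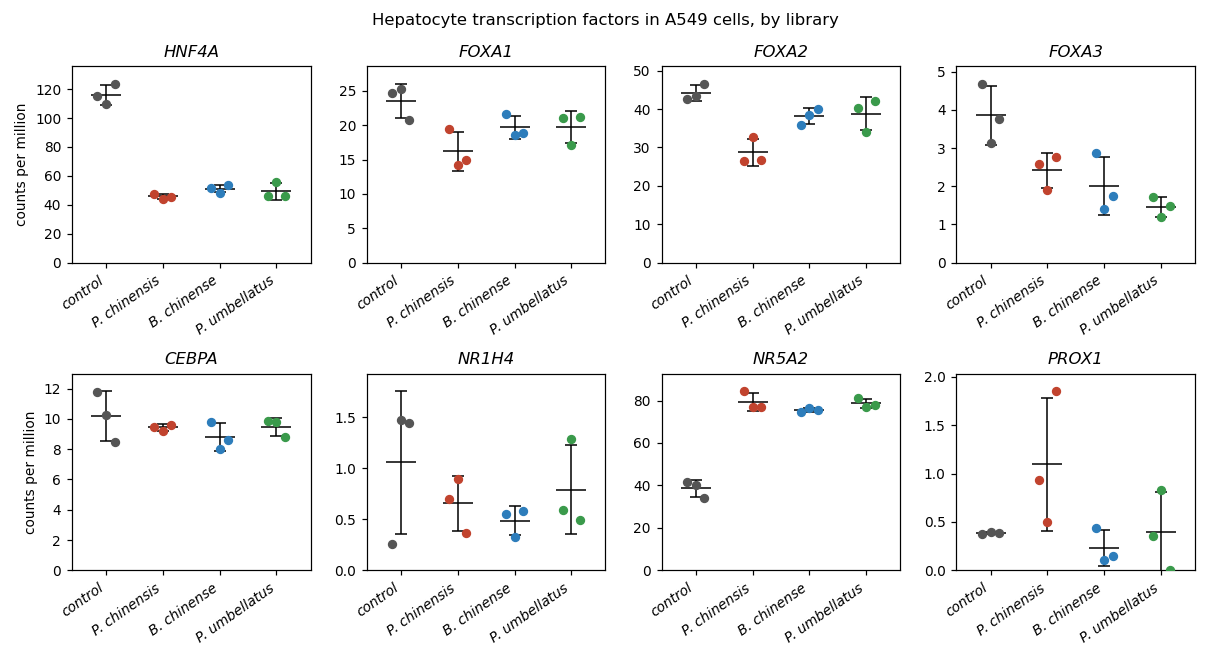
CPM of each transcription factor in the 12 A549 libraries, by treatment, with the mean and SD of 3 libraries; each panel has its own axis from 0. HNF4A sits between 43.9 and 56.1 with the herbs against 110.1 to 124 in control, and NR5A2 between 74.5 and 84.3 against 34.04 to 41.4.

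Among the forkhead genes, FOXA2 was 42.7, 43.5 and 46.6 CPM in A549 control and 26.6, 32.8 and 26.7 with P. chinensis, which gave a log2 fold change of −0.62 ± 0.11 (adjusted p = 0.000358). With B. chinense it was 35.8 to 40.0 CPM (−0.22 ± 0.10, adjusted p = 0.145) and with P. umbellatus 33.9 to 42.0 CPM (−0.19 ± 0.10, 0.188), below the controls but not called. FOXA1 was 24.7, 25.3 and 20.7 CPM in control and 19.4, 14.3 and 14.9 with P. chinensis (−0.54 ± 0.14, adjusted p = 0.00972), with no overlap.

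FOXA1 was not called with B. chinense (−0.26 ± 0.14, adjusted p = 0.212) or P. umbellatus (−0.25 ± 0.14, 0.222), and its call with P. chinensis was lost without replicate 2 of that group (adjusted p = 0.0505). FOXA3 was a low gene in A549, with 37, 32 and 39 counts in control and 29, 13 and 12 with P. umbellatus, that is 4.69, 3.15 and 3.76 CPM against 1.72, 1.20 and 1.49 CPM. Its log2 fold change there was −1.27 ± 0.34 (adjusted p = 0.0075). With P. chinensis (−0.63 ± 0.33, adjusted p = 0.142) and B. chinense (−0.87 ± 0.34, 0.0557) it was not called.

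CEBPA was 11.8, 10.2 and 8.49 CPM in A549 control and 7.99 to 9.88 CPM over the 9 treated libraries, with log2 fold changes of −0.10, −0.20 and −0.09 and 95% intervals that reach from −0.52 to 0.23. NR1H4 (2 to 15 counts over the 12 libraries) and PROX1 (0 to 20 counts) could not be resolved at this depth. PROX1 had 8, 5 and 20 counts with P. chinensis against 3, 4 and 4 in control (adjusted p = 0.152). In the whole table, P. chinensis called 15.8% of genes up and 17.1% down in A549, B. chinense 13.1% and 15%, and P. umbellatus 13.4% and 14.8%. Of the 8 members, 1 rose and 3 fell with P. chinensis. B. chinense had 1 rise and 1 fall, and P. umbellatus 1 rise and 2 falls.

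**Figure D3:**
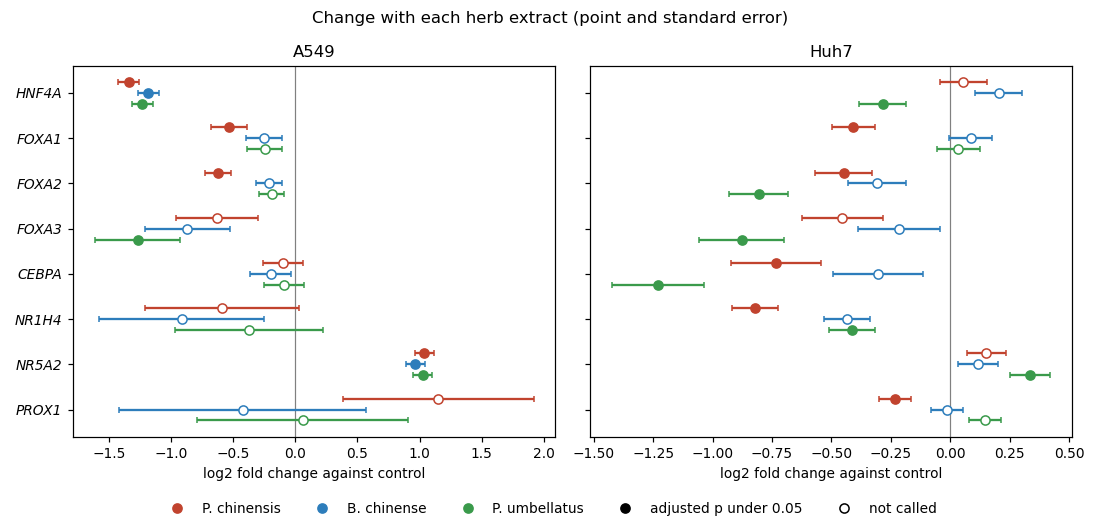
Log2 fold change against control of each transcription factor (point) with its standard error (bar) for the 3 herbs in A549 and Huh7, the lines on separate scales; filled points have an edgeR adjusted p under 0.05. HNF4A and NR5A2 are filled for every herb in A549, and no member is filled for B. chinense in Huh7.

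In Huh7 the same extracts gave another picture. With P. chinensis NR1H4, CEBPA, FOXA2, FOXA1 and PROX1 fell, with B. chinense no member was called, and with P. umbellatus CEBPA, FOXA3, FOXA2, NR1H4 and HNF4A fell and NR5A2 rose. HNF4A did not change with P. chinensis beyond its error, in contrast to A549.

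NR1H4, the bile acid receptor, was 196, 181 and 184 CPM in Huh7 control and 109.5, 97.8 and 111 with P. chinensis. It stood at 138, 144 and 135 CPM with B. chinense and at 122, 164 and 136 with P. umbellatus. All 9 treated libraries were below all 3 controls. It fell by 43.4% with P. chinensis (log2 −0.82 ± 0.10, adjusted p = 9.65e-05). It fell by 24.9% with P. umbellatus (−0.41 ± 0.10, 0.00727), while B. chinense gave −0.43 ± 0.10 with an adjusted p of 0.0514, just short of the threshold. Over the alternatives the P. chinensis value lay between −0.88 and −0.77 and was called in each. The NR1H4 value with B. chinense was called by DESeq2 (adjusted p = 0.00184) and without replicate 2 of P. umbellatus (0.00145).

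CEBPA was 361, 418 and 424 CPM in Huh7 control and 241, 236 and 246 with P. chinensis, a tight group well below the controls (log2 −0.73 ± 0.19, adjusted p = 0.0159). It was 331, 311 and 333 CPM with B. chinense, also under every control but not called (−0.30 ± 0.19, adjusted p = 0.586). With P. umbellatus it was 179.9, 105 and 226 CPM, the widest spread of any member in any Huh7 group relative to its mean (−1.23 ± 0.19, adjusted p = 0.00125). The spread of that group enters the shared error of all Huh7 tests of CEBPA. Leaving out replicate 2 of P. umbellatus, the one at 105 CPM, gave an adjusted p of 2.04e-05 with P. chinensis and 0.0387 with B. chinense. The CEBPA call with P. chinensis was lost without replicate 1 or 2 of P. chinensis or without replicate 2 or 3 of control (adjusted p = 0.0535 to 0.0583).

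**Figure D4:**
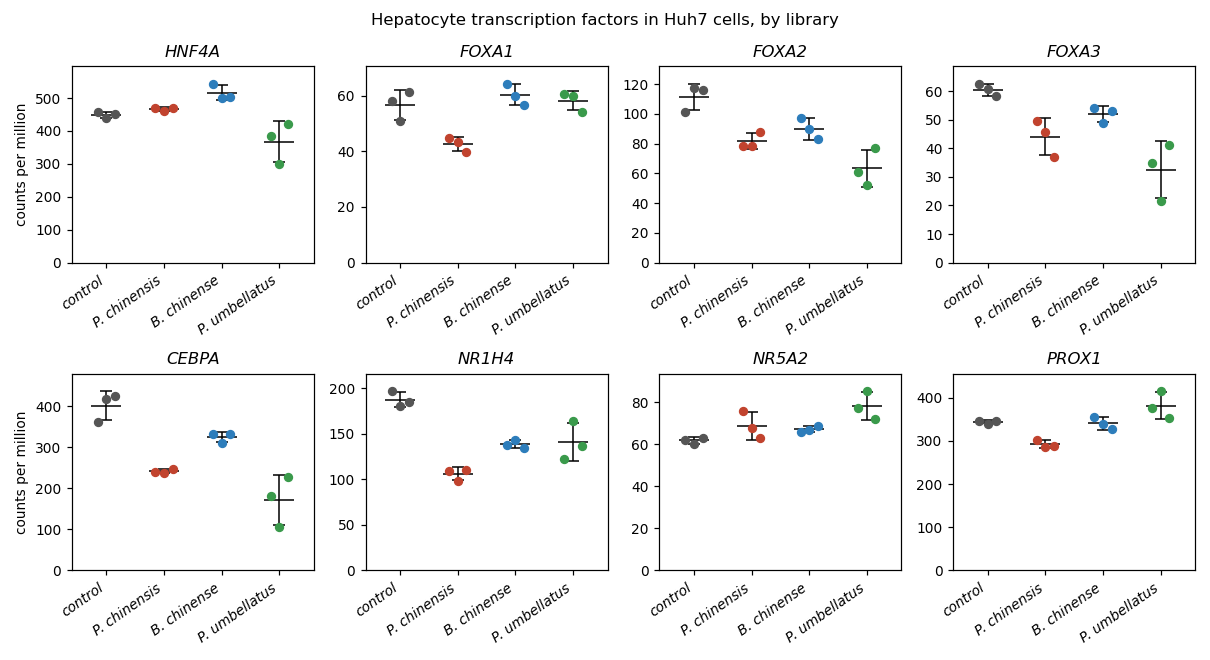
CPM of each transcription factor in the 12 Huh7 libraries, by treatment, with the mean and SD of 3 libraries; each panel has its own axis from 0. NR1H4 is below its controls with each herb, and the middle P. umbellatus point, replicate 2, is the lowest for CEBPA at 105 and FOXA3 at 21.6 and the highest for PROX1 at 415.

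The forkhead genes differed among themselves. FOXA1 was 58.0, 50.9 and 61.4 CPM in Huh7 control and 44.9, 43.4 and 39.8 with P. chinensis (log2 −0.41 ± 0.09, adjusted p = 0.00689). It was 56.8 to 64.3 CPM with B. chinense (0.09 ± 0.09, adjusted p = 0.807) and 54.2 to 60.4 CPM with P. umbellatus (0.03 ± 0.09, 0.799), both across the control range. FOXA1 thus passed the test with P. chinensis and with neither of the other extracts.

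FOXA2, which is also central to foregut endoderm, was 101, 117 and 116 CPM in Huh7 control, 78.5, 78.7 and 87.9 with P. chinensis (−0.45 ± 0.12, adjusted p = 0.02) and 61.1, 52.3 and 76.9 with P. umbellatus (−0.81 ± 0.12, 0.00117). With B. chinense it was 82.8 to 97.4 CPM (−0.31 ± 0.12, adjusted p = 0.307). The groups with the extracts all lay under the controls. Its call with P. chinensis was lost without replicate 1 or 2 of P. chinensis or replicate 2 or 3 of control (adjusted p = 0.0702 to 0.0749).

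FOXA3, the forkhead member most particular to liver and gut, was 62.3, 60.9 and 58.2 CPM in control, 49.4, 45.7 and 36.8 with P. chinensis and 34.8, 21.6 and 41.3 with P. umbellatus. It was called with P. umbellatus (−0.88 ± 0.18, adjusted p = 0.00382) and not with P. chinensis (−0.45 ± 0.17, 0.0815) or B. chinense (−0.22 ± 0.17, 0.709). PROX1 was 346, 340.4 and 347 CPM in control and 303, 286 and 288 with P. chinensis, a small fall with no overlap (−0.23 ± 0.07, adjusted p = 0.0262). With upper quartile scaling that PROX1 call was lost (adjusted p = 0.0659), and it was lost without any of 4 libraries: replicates 2 and 3 of P. chinensis and replicates 1 and 3 of control (0.0621 to 0.0912). With P. umbellatus PROX1 was 377, 415 and 352 CPM (0.15 ± 0.07, adjusted p = 0.101).

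HNF4A was 456, 438 and 451 CPM in Huh7 control, 469, 459 and 469 with P. chinensis (0.06 ± 0.10, adjusted p = 0.752, 95% interval −0.14 to 0.25) and 543, 501 and 505 with B. chinense (0.20 ± 0.10, 0.44). With P. umbellatus it was 384, 298 and 420.4 CPM (−0.29 ± 0.10, adjusted p = 0.0393), and leaving out replicate 1, 2 or 3 of control or replicate 3 of P. chinensis took that call away (0.0548 to 0.0997). NR5A2 was 62.2, 60.2 and 63.2 CPM in control. P. chinensis gave 75.6, 67.6 and 62.7 CPM (0.15 ± 0.08, adjusted p = 0.235), B. chinense 65.9, 66.8 and 68.6 (0.12 ± 0.08, 0.669), and P. umbellatus 77.4, 85.1 and 71.9 (0.33 ± 0.09, 0.0107). NR5A2 lay above all its controls in 8 of 9 treated libraries, and its call with P. umbellatus was lost without replicate 2 of control (adjusted p = 0.0557). When control and P. umbellatus were fitted on their own, HNF4A (0.137), NR5A2 (0.0764) and NR1H4 (0.0524) were not called.

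In the whole table, P. chinensis called 10.5% of genes up and 10.5% down in Huh7, and 0 and 5 of the 8 members. B. chinense called 0.519% up and 0.757% down, and 0 members (edgeR, with 2 members at an unadjusted p under 0.05, 1 member called by DESeq2 and 4 by limma-voom with quality weights). The shares of all genes are those of edgeR. Those under DESeq2 and limma-voom are not reported here, so that the member counts of these methods have no share to be set against. P. umbellatus called 19.3% up and 17.8% down, and 1 and 5 members. The median log2 fold change over the members was −0.43, −0.12 and −0.35, against 0.01, 0.00 and 0.03 over all genes tested.

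With P. umbellatus in Huh7 the changes of the members followed the base composition of their transcripts, as did those of the whole table. Over all genes tested, the median log2 fold change went from 0.38 in the decile lowest in GC content (median 36.8% GC) to −0.75 in the highest (64.1% GC). With the other 2 herbs in Huh7 it ran only from 0.02 to −0.08 and from 0.02 to −0.06 between these deciles. The members highest in GC, CEBPA, FOXA3 and FOXA2, fell most, and AT-rich NR5A2 rose. NR1H4 was the exception, with 40.2% GC and a fall.

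When each library was corrected for GC content and transcript length, the P. umbellatus values were −0.24 for CEBPA (adjusted p = 0.00907), −0.30 for FOXA3 (0.0535), −0.28 for FOXA2 (0.058), −0.06 for HNF4A (0.46) and 0.04 for NR5A2 (0.724). PROX1 changed sign, from 0.15 to −0.13 (adjusted p = 0.0381). NR1H4 went the other way and fell further, to −0.66 (adjusted p = 3.98e-05). Of the 6 calls those of CEBPA and NR1H4 were left, and that of PROX1 was added, 3 in all. The same correction left the P. chinensis values nearly in place, at −0.88 for NR1H4, −0.61 for CEBPA, −0.46 for FOXA1, −0.43 for FOXA2 and −0.21 for PROX1, all called, and added FOXA3 at −0.45 (adjusted p = 0.00212). Without replicate 2 of P. umbellatus and with no correction, all 6 members stayed called with P. umbellatus, CEBPA at −0.98 and NR1H4 at −0.53.

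**Figure D5:**
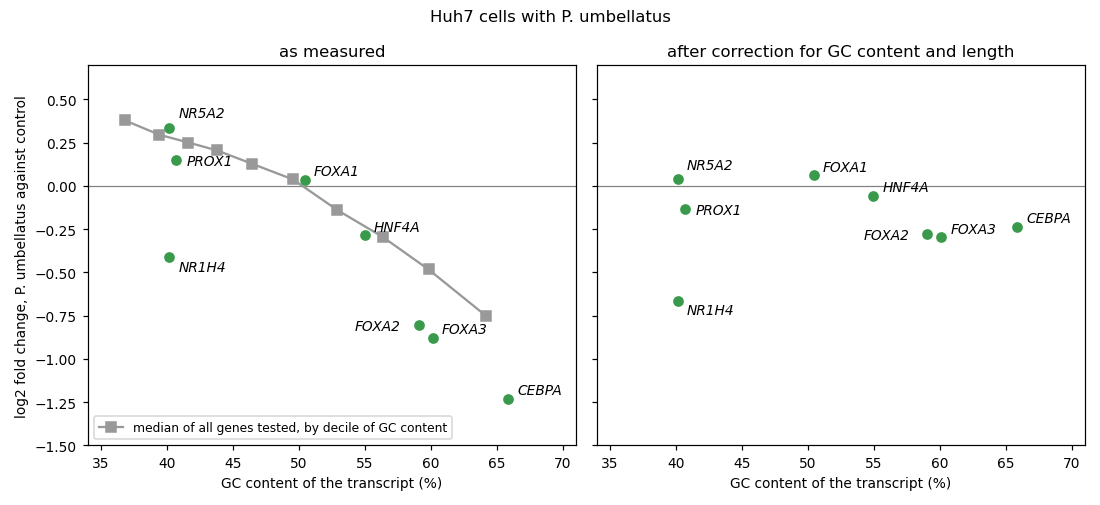
Log2 fold change of each transcription factor in Huh7 with P. umbellatus against the GC content of its canonical transcript, as measured (left, with the median of all genes tested in each decile of GC content as grey squares) and after correction for GC content and length (right). CEBPA moves from −1.23 to −0.24 and NR1H4 from −0.41 to −0.66.

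The herbs were next compared with one another in Huh7, since a call with 1 herb and none with another does not show a difference. These tests cover 3 pairs of herbs, 8 members each, within fits of 13875 genes. Between P. chinensis and B. chinense, where 7.81% of all genes were called, FOXA1 (log2 −0.49 ± 0.09, adjusted p = 0.00641) and NR1H4 (−0.39 ± 0.10, 0.0293) were lower with P. chinensis. The NR1H4 call was lost without any 1 of the 6 libraries of these herbs (adjusted p = 0.0573 to 0.0974) and with the replicate number as a block (0.0556). CEBPA (−0.43 ± 0.19, adjusted p = 0.206) and HNF4A (−0.15 ± 0.10, 0.423, 95% interval −0.34 to 0.04) were not called. CEBPA was 236 to 246 CPM with P. chinensis and 311 to 333 with B. chinense, and HNF4A 459 to 469 and 501 to 543. The error of these tests is shared with the P. umbellatus libraries, in which CEBPA ran from 105 to 226 CPM, so that a missing call does not show likeness.

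Between P. chinensis and P. umbellatus, 35.4% of all genes were called. FOXA1 (−0.44 ± 0.09, adjusted p = 0.0037), NR1H4 (−0.41 ± 0.10, 0.00714) and PROX1 (−0.38 ± 0.07, 0.00155) were lower with P. chinensis, and HNF4A (0.34 ± 0.10, 0.0187) and FOXA2 (0.36 ± 0.12, 0.0409) were higher. After the GC correction HNF4A (0.12, adjusted p = 0.105) and PROX1 (−0.08, 0.176) were no longer called and FOXA2 changed sign, to −0.15 (0.265). The FOXA2 call was also lost without any 1 of 8 libraries (0.0532 to 0.133). CEBPA, higher with P. chinensis as measured (0.50 ± 0.19, adjusted p = 0.0617), was lower after the correction, at −0.38 (0.000364).

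Between B. chinense and P. umbellatus, with 27.3% of all genes called, HNF4A (0.49 ± 0.10, adjusted p = 0.00947), FOXA2 (0.50 ± 0.13, 0.0167), FOXA3 (0.66 ± 0.18, 0.0216) and CEBPA (0.93 ± 0.19, 0.00972) were higher with B. chinense. These are the 4 members highest in GC, and of these calls HNF4A (0.26, adjusted p = 0.0117) was left after the correction. With these groups fitted on their own, none of the 8 was called. NR1H4 was not told apart (−0.02 ± 0.10, adjusted p = 0.89, 95% interval −0.21 to 0.17).

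Whether the lines responded differently was tested as the change in Huh7 minus the change in A549, in all 24 libraries over 12924 genes. HNF4A was called for each herb, at 1.35 ± 0.13 (P. chinensis, adjusted p = 2.28e-07), 1.35 ± 0.13 (B. chinense, 7.41e-07) and 0.87 ± 0.13 (P. umbellatus, 5.69e-05). It fell in A549 with every herb, and in Huh7 it fell with P. umbellatus, by less, and lay above control without a call with the other herbs. NR5A2 was called for each herb too, at −0.94 ± 0.11 (adjusted p = 2.84e-06), −0.89 ± 0.11 (1.47e-05) and −0.77 ± 0.11 (3.54e-05). It rose in A549 with every herb. In Huh7 its rise was called with P. umbellatus only, and not after the GC correction. The line differences of HNF4A and NR5A2 held in every alternative run.

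For P. umbellatus, CEBPA (−1.23 ± 0.28, adjusted p = 0.0019) and FOXA2 (−0.69 ± 0.17, 0.00309) differed between the lines as measured and not after the GC correction, at −0.11 (0.631) for CEBPA and −0.06 (0.794) for FOXA2. For P. chinensis, PROX1 was called (−1.51 ± 0.54, adjusted p = 0.0202) on its few A549 reads. It passed the A549 filter of a mean above 5 counts only through the P. chinensis libraries. It lost that call without A549 P. chinensis replicate 3, the library with 20 counts (−0.94, adjusted p = 0.21), and without A549 control replicate 2 or 3 (0.0528 and 0.0526). FOXA1 was not told apart between the lines for P. chinensis (0.08 ± 0.16, adjusted p = 0.791, 95% interval −0.24 to 0.40). These interactions were called for 19.6%, 11.6% and 34.4% of all genes, in the order P. chinensis, B. chinense and P. umbellatus.

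Other transcription factors of the liver network, numbered 28, of which 27 were tested in Huh7. With P. chinensis 1 rose and 12 fell, with B. chinense none was called, and P. umbellatus had 1 rise and 10 falls, at median log2 fold changes of −0.33, −0.09 and −0.31. Beside these stand 10.5% of all genes called up and 10.5% down with P. chinensis, and 19.3% and 17.8% with P. umbellatus. After the GC correction the P. umbellatus count was 1 and 5 and its median −0.06, while P. chinensis stood at 3 and 14. The shares of all genes, here and for the lists below, are those before the correction. Shares after it are not reported here, so that the corrected counts have no share to be set against.

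KLF15, a glucocorticoid-responsive regulator of amino acid metabolism, fell with P. chinensis (−1.02 ± 0.18, adjusted p = 0.00192) and P. umbellatus (−1.66 ± 0.20, 0.000381, or −1.08 and 0.000779 after the GC correction) and was called with no herb in A549. NR0B2 encodes SHP, the repressor that FXR induces. It fell from 18.5 ± 1.58 CPM (SD, n = 3) to 10.3 ± 1.35 with P. chinensis (−0.83 ± 0.21, adjusted p = 0.013) and 8.36 ± 2.80 with P. umbellatus (−1.12 ± 0.22, 0.00309). After the GC correction the latter was −0.55 (adjusted p = 0.029). Any link between the falls of NR0B2 and NR1H4 was not tested.

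CEBPD, a stress-responsive C/EBP factor, rose with P. chinensis in Huh7 (0.74 ± 0.21, adjusted p = 0.0254) and fell with it in A549 (−0.90 ± 0.14, 0.000137). Set against each other, these P. chinensis responses differed (1.59 ± 0.25, 7.25e-05). In A549 CEBPD also fell with B. chinense (−0.38 ± 0.14, adjusted p = 0.049) and P. umbellatus (−0.59 ± 0.13, 0.0038). ONECUT2 rose slightly with P. umbellatus in Huh7 (0.26 ± 0.09, adjusted p = 0.031) and not after the correction (−0.04, 0.624). It was called with no herb in A549.

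Of 16 coactivators and corepressors through which these factors act, 2 rose and 1 fell with P. chinensis in Huh7, none was called with B. chinense, and 6 rose and 3 fell with P. umbellatus (3 and 1 after the GC correction). These 3 of 16 calls with P. chinensis stand beside 10.5% of all genes called in each direction, and the 9 with P. umbellatus beside 19.3% up and 17.8% down. PPARGC1A, the inducible coactivator of HNF4A in gluconeogenesis, went from 2.02 ± 0.274 CPM to 5.16 ± 0.243 with P. chinensis (1.30 ± 0.19, adjusted p = 0.000414) and to 3.06 ± 0.178 with P. umbellatus (0.57 ± 0.21, 0.0404), the latter not called after the correction (0.32, 0.316). In A549 it fell with every herb, by −1.58 ± 0.10 (adjusted p = 3.19e-08), −1.33 ± 0.10 (3.34e-07) and −1.43 ± 0.10 (1.41e-07). PPARGC1A responses thus differed between Huh7 and A549 for each herb, most for P. chinensis at 2.82 ± 0.18 (adjusted p = 3.82e-10).

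SIRT1, a deacetylase that acts on FXR and PGC-1alpha, rose in Huh7 with P. chinensis (0.47 ± 0.15, adjusted p = 0.0404) and P. umbellatus (0.85 ± 0.15, 0.00211, or 0.55 and 0.0045 after the GC correction) and was not called in A549. NCOA2 fell with P. chinensis (−0.34 ± 0.08, adjusted p = 0.0115) and was not called in A549. The corepressor TLE3 fell with P. umbellatus in Huh7 (−0.66 ± 0.17, adjusted p = 0.0109) and was not called after the GC correction (−0.21, 0.0693). In A549 TLE3 fell with P. chinensis (−0.60 ± 0.10) and with B. chinense (−0.29 ± 0.10).

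Plasma protein and enzyme genes that HNF4A, FOXA or C/EBP factors bind numbered 35 tested in Huh7. With P. chinensis 2 rose and 15 fell, B. chinense had 2 rises and 3 falls, and P. umbellatus 3 and 20 (3 and 12 after the GC correction), with medians of −0.24, −0.17 and −0.39. Of all genes, before the GC correction, 10.5% were called up and 10.5% down with P. chinensis, and 19.3% and 17.8% with P. umbellatus. For B. chinense the shares were 0.519% and 0.757%. AHSG, which encodes the plasma glycoprotein fetuin-A, fell with each herb, from 428 ± 15.8 CPM (SD, n = 3) to 188 ± 4.32, 217 ± 6.69 and 168 ± 19.5. Its log2 fold changes were −1.18 ± 0.08 (adjusted p = 1.26e-06), −0.98 ± 0.08 (0.000109) and −1.35 ± 0.08 (4.58e-06).

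Coagulation factor VII (F7) fell with P. chinensis (−1.31 ± 0.17, adjusted p = 0.000213) and P. umbellatus (−0.90 ± 0.18, 0.00329), the latter not called after the GC correction (−0.50, 0.0658). Antithrombin (SERPINC1) fell with each herb (−0.78 ± 0.11, −0.63 ± 0.11 and −0.46 ± 0.11, the largest adjusted p being 0.0124). The asialoglycoprotein receptor subunit ASGR2 fell with P. chinensis (−0.77 ± 0.11, adjusted p = 0.000499) and P. umbellatus (−0.99 ± 0.12, 0.000348, or −0.54 and 2.75e-05 after the GC correction). The fibrinogen genes FGB and FGA moved in the other direction, while the third, FGG, was called with P. umbellatus (0.36 ± 0.12, adjusted p = 0.0383) and not with P. chinensis (0.11 ± 0.12, 0.571) or B. chinense (0.18 ± 0.12, 0.634). FGB rose with each herb (0.69 ± 0.08, 0.43 ± 0.08 and 0.44 ± 0.08, the largest adjusted p being 0.0201) and so did FGA (0.32 ± 0.07, 0.35 ± 0.07 and 0.44 ± 0.07, the largest 0.0276). After the GC correction FGB with P. umbellatus was 0.18 (adjusted p = 0.0149). In A549 both fell with each herb, FGA by −1.58 ± 0.19, −1.12 ± 0.18 and −1.58 ± 0.18 and FGB, a low gene there, by −2.35 ± 0.49, −1.89 ± 0.48 and −1.98 ± 0.47. The summed level of the 7 hepatocyte markers was 10523 to 11243 CPM with P. chinensis in Huh7, 16551 to 17076 with B. chinense and 16679 to 20730 with P. umbellatus, against 18649 to 19128 in control, and its part in the changes of the factors was not tested. APOB (11158 CPM) and ALB (4778 CPM) make up most of this sum in control. FGB, which rose with each herb, and AHSG, which fell, are small parts of it. The changes of APOB, ALB, APOA1, TTR and SERPINA1 with the herbs are not reported here.

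Of 21 tested genes of bile acid and lipid handling that FXR or LRH-1 control, 1 rose and 7 fell with P. chinensis, none was called with B. chinense, and 1 rose and 5 fell with P. umbellatus (1 and 7 after the GC correction), NR0B2 among the falls both times. The shares over all genes before the GC correction were 10.5% up and 10.5% down with P. chinensis and 19.3% and 17.8% with P. umbellatus. The hepatic uptake carrier SLCO1B3 fell with P. chinensis (−0.92 ± 0.25, adjusted p = 0.0195) and P. umbellatus (−0.79 ± 0.26, 0.0314, or −1.13 and 0.00809 after the GC correction) and was not called in A549. FGFR4, the receptor by which FGF19 represses bile acid synthesis, fell with P. chinensis (−0.63 ± 0.19, adjusted p = 0.0343) and P. umbellatus (−0.99 ± 0.19, 0.00318), the latter −0.21 (0.0307) after the GC correction. It fell with each herb in A549 (−0.95 ± 0.09, −0.74 ± 0.09 and −0.86 ± 0.09).

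Of 16 drug-metabolism genes tested, 5 rose and 1 fell with P. chinensis, 2 rose with B. chinense, and 4 rose and 1 fell with P. umbellatus, before and after the GC correction. Over all genes, before that correction, 10.5% were called up and 10.5% down with P. chinensis, and 19.3% and 17.8% with P. umbellatus. With B. chinense these shares were 0.519% and 0.757%. CYP1A1, the main target of the aryl hydrocarbon receptor, rose from 133 ± 4.39 CPM (SD, n = 3) to 390.5 ± 6.09, 292 ± 11.7 and 376 ± 56.8, with log2 fold changes of 1.55 ± 0.09, 1.13 ± 0.09 and 1.5 ± 0.09 (the largest adjusted p being 0.000125). In A549 it rose with each herb from a low level (3.41 ± 0.52, 3.79 ± 0.51 and 3.52 ± 0.51). UGT1A1, whose shared exons with the rest of the UGT1A locus make its counts uncertain, rose with each herb in Huh7 (1.24 ± 0.15, 0.74 ± 0.15 and 1.56 ± 0.15) and was not called in A549. FMO5 fell with P. chinensis (−0.61 ± 0.13, adjusted p = 0.00589), and it was near the floor and not called in A549. POR, the electron donor of the cytochromes P450, fell with P. umbellatus (−0.74 ± 0.16, adjusted p = 0.00503) and not after the GC correction (0.157). In A549 POR fell with P. chinensis (−0.18 ± 0.05).

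The same lists were thinner in A549, where fewer genes passed the filter on low counts. Of 24 other liver transcription factors tested there, 2 rose and 8 fell with P. chinensis, B. chinense had 3 rises and 6 falls, and P. umbellatus 1 and 8. Of 16 cofactors 4, 4 and 1 fell and 0, 1 and 1 rose. Of 18 plasma protein and enzyme genes 4, 6 and 5 fell and none rose, of 12 FXR or LRH-1 targets 2 rose with each herb and 3, 2 and 2 fell, and of 14 drug-metabolism genes 2, 3 and 3 rose and 1, 0 and 0 fell. Over all genes in A549, 13.1% to 15.8% were called up and 14.8% to 17.1% down.

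Genes whose log2 CPM most resembled that of a member over the 12 Huh7 libraries were sought among 11255 genes, as a description that shares libraries, herbs and base composition. CEBPA was closest to VWA1 (Pearson r = 0.996, Spearman rho = 0.965, r = 0.987 without the 2 libraries farthest from the median) and MPST (0.994, 0.993 and 0.984). NR1H4 was closest to PIR, a redox-sensitive NF-kB cofactor (0.982, 0.986 and 0.979), and HMGCS1, an enzyme of cholesterol synthesis (0.976, 0.958 and 0.975). The libraries left out for NR1H4 were control replicate 1 and P. chinensis replicate 2.

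HNF4A was closest to REEP6 (r = 0.985, rho = 0.958, 0.926 without the 2) and CHMP6 (0.981, 0.909 and 0.919), and FOXA1 to TOP2B (0.960, 0.951 and 0.902) and MTR (0.954, 0.832 and 0.882). FOXA2 was closest to ANKRD9 (r = 0.980) and SLX1A (0.976), FOXA3 to MINK1 (0.980) and ACOT2 (0.979), NR5A2 to GATC (0.975) and KBTBD8 (0.975), and PROX1 to ZNF281 (0.981) and ADGRL2 (0.980). For HNF4A, FOXA2, FOXA3, CEBPA and NR5A2 the 2 libraries farthest from the median were replicates 1 and 2 of P. umbellatus, so that these likenesses lean on that group.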

How the data were processed

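RNA from 24 libraries (total RNA, ribosomal RNA removed, stranded kit) was quantified by the authors against the Ensembl GRCh38.p13 transcripts with kallisto, per the labels and the study's methods, and deposited as a table of whole-number counts per gene, limited to genes with an average count above 5. How transcripts were summed and rounded, and the strand setting, are not given in the sources used here. Counts were tested as deposited with the edgeR 4.0.16 quasi-likelihood test (R 4.3.3, TMM scaling, prior count 2, genes with a mean above 5 counts), with Benjamini-Hochberg adjustment over all genes tested and a threshold of 0.05, in 12 libraries per line or all 24 for comparisons between lines. Each edgeR SE is the log2 change before shrinkage divided by the square root of the test's F statistic. The printed log2 change is shrunken by the prior count, so that the SE and intervals are approximate, above all at low counts. Members are reported in every group. From each list, the 2 largest rises and 2 largest falls called in each Huh7 comparison with at least 50 counts on average were named, and for likeness the 2 highest correlations. Some genes that this rule names are not reported here. Members and lists were chosen with earlier results of these data known. Alternatives were DESeq2 1.42.0, limma 3.58.1 with quality weights, other scalings and filters, a replicate block, a GC and length correction (splines with 5 degrees of freedom), only the groups compared, and each library left out. The script was tested on simulated data. Depth was 6803704 to 24345541 counts per library.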

Additional observations from a re-analysis of the deposited data

Results flagged for a closer look

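Differences between the lines in the response to a herb were singled out where they passed the test of the difference itself (response in Huh7 minus response in A549, log2, edgeR quasi-likelihood test over all genes, adjusted p). HNF4A differed for P. chinensis (1.35, adjusted p = 2.28e-07), B. chinense (1.35, 7.41e-07) and P. umbellatus (0.87, 5.69e-05). NR5A2 differed for P. chinensis (−0.94, adjusted p = 2.84e-06), B. chinense (−0.89, 1.47e-05) and P. umbellatus (−0.77, 3.54e-05). PROX1 differed for P. chinensis (−1.51, adjusted p = 0.0202), from 3 to 4 counts in A549 control and 5 to 20 with the herb. That call was lost without the A549 P. chinensis library of 20 counts. PROX1 also passed the A549 filter of a mean above 5 counts only through the P. chinensis libraries, so no conclusion is drawn from it. CEBPA (−1.23, adjusted p = 0.0019) and FOXA2 (−0.69, 0.00309) differed for P. umbellatus, and neither did after the GC correction. All groups held 3 libraries, so that single libraries were not tested as outliers.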

How the results depend on the processing

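With the GC and length correction, 4 members were called in A549 with B. chinense, 3 in Huh7 with B. chinense, 3 with P. umbellatus, 4 between P. chinensis and B. chinense, 3 between P. chinensis and P. umbellatus and 1 between B. chinense and P. umbellatus. With only the groups compared these Huh7 counts were 4 for B. chinense, 3 for P. umbellatus, 5, 2 and 0. For B. chinense in Huh7 DESeq2 called 1, a mean above 20 counts 1 and limma-voom 4, and limma-voom called 5 between P. chinensis and B. chinense. The share of all genes called under each alternative is not reported here or above. These counts therefore cannot separate a change in the members from a change in how many genes a setting calls.

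Leaving out 1 library gave 3 to 4, 2 to 3 and 3 calls in A549 (P. chinensis, B. chinense, P. umbellatus), 2 to 6, 0 to 3 and 4 to 7 in Huh7, 1 to 5, 3 to 8 and 2 to 6 between herbs, and 2 to 4, 2 and 4 for the differences between lines. All 8 baseline calls held. The shares of all genes called in these fits are not reported here either, so that the same limit applies.

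The replicate numbers did not pair the samples (correlations of deviations −0.0318 to 0.0515). With the replicate block NR1H4 in Huh7 with P. chinensis was −0.82 (adjusted p = 0.000502), and 1 member was called between P. chinensis and B. chinense.

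Signs turned mostly for values near 0. NR1H4 between B. chinense and P. umbellatus was 0.0018 (DESeq2), 0.0014 (RLE), 0.00096 (upper quartile), 0.0028 (mean above 20), 0.11 (limma-voom), 0.22 (GC) and 0.0077 (only the groups), and −0.11 to 0.098 with 1 library left out. PROX1 was −0.73 in A549 with P. umbellatus (limma-voom; −0.49 to 0.39 with 1 library left out) and 0.0067 in Huh7 with B. chinense (upper quartile; −0.047 to 0.011). With the GC correction PROX1 was −0.13 with P. umbellatus in Huh7 and 0.091 between B. chinense and P. umbellatus, NR5A2 0.040 there and 0.082 between P. chinensis and P. umbellatus, FOXA2 −0.15, FOXA3 −0.15 and CEBPA −0.38 in the latter, and the CEBPA difference between lines for B. chinense 0.11. The line difference for P. umbellatus was 0.059 for NR1H4 (DESeq2; −0.29 to 0.35 with 1 library left out) and, for PROX1, 0.036 (RLE), 0.026 (upper quartile), 0.79 (limma-voom) and 0.038 (only the groups), or −0.29 to 0.54 with 1 library left out. For P. chinensis it ran from −0.47 to 0.14 for NR1H4 and from −0.018 to 0.27 for FOXA3 with 1 library left out. Likewise CEBPA in A549 ran from −0.22 to 0.012 with P. chinensis and from −0.20 to 0.023 with P. umbellatus, FOXA1 in Huh7 with P. umbellatus from −0.067 to 0.094, and NR5A2 between P. chinensis and B. chinense from −0.058 to 0.094. None of these values was called except the GC-corrected ones of PROX1 with P. umbellatus and CEBPA between P. chinensis and P. umbellatus. The causes were not tested. Depth limits NR1H4 and PROX1 in A549, at 0 to 20 counts per library.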
